A study of Mus musculus with 16 samples.

Results

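Activation of Foxp3- CD4+ T cells, the conventional helper T cells of mice, was described across all 16475 genes tested. The samples were chosen by their labels alone: 4 arrays of activated Foxp3- cells (2 of cytosolic and 2 of polysome-associated mRNA) were set against the 4 corresponding arrays of Foxp3- cells taken directly ex vivo. These are 8 of the 16 arrays of the series, whose other 8 hold Foxp3+ regulatory T cells in the same states and RNA fractions. The study asked how mRNA levels and translation differ between the subsets of CD4+ T cells. Lymph nodes and spleens of female C57BL/6 Foxp3-GFP knock-in reporter mice, 6 to 12 weeks old, gave the cells, which were sorted as CD4+ GFP- cells to a purity above 97% by the authors' statement. Since GFP reports only on Foxp3, the Foxp3- gate holds naive as well as previously activated helper cells. Activation lasted 36 h, with CD3 and CD28 antibodies bound to the plate at 5 µg/ml and 100 U/ml of recombinant human IL-2 in the medium. To keep ribosomes in place on the mRNA, 100 µg/ml cycloheximide was in all buffers and media of the ex vivo cells and was added at the end of culture to the activated cells. For ex vivo cells, RNA of 2 experiments was pooled for each sample, and the methods name the samples biological duplicates. Polysome-associated mRNA was the mRNA carrying 3 or more ribosomes. No cells cultured without the antibodies were among the samples. The change called activation here therefore holds the effects of culture, of IL-2 and of the different exposure to cycloheximide as well. By the array names in the labels, the arrays of each state also belong to a separate series, so that state and series cannot be told apart.

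A resting T cell is small, divides rarely and makes little protein. Engagement of its antigen receptor together with the costimulatory receptor CD28 starts signalling through calcium and NFAT, through AP-1 and through NF-kB. The cell then secretes interleukin 2, grows, replicates its DNA and divides. Genes that keep naive cells at rest and circulating through lymph nodes, such as those under the factor FOXO1, are turned down in this process. An mRNA can change in amount, in the share of its copies that carry many ribosomes, or in both. A change of equal size in cytosolic and polysome-associated mRNA is what a change in amount alone would give.

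All values are log2 intensities, so that a difference of 1 is a 2-fold change. The 8 arrays had medians of 4.845 to 4.954. Replicate arrays had Pearson correlations across genes of 0.989 and 0.992 ex vivo and of 0.941 and 0.945 after activation. Between replicates a gene had a median SD of 0.119 (cytosolic) and 0.134 (polysome-associated) ex vivo, against 0.276 and 0.24 after activation. For actin the control probe set at the 3′ end of the transcript was 0.82 to 1.38 above that at the 5′ end in the ex vivo arrays, and -0.202 to -0.362 in the activated arrays. For Gapdh these differences were 2.26 to 3.37 and 1.14 to 1.21. The part of this difference between the states in the changes of genes was not tested.

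Foxp3, the gene that defines the sort, was at 3.74 to 4.74 on the ex vivo arrays and at 5.26 to 6.85 on the activated arrays of Foxp3- cells. It was at 9.42 to 10.76 on the 8 arrays of Foxp3+ cells. Of 10 measured markers of CD4 T cells, 2 rose, 4 fell and 4 were not called. Over all genes 22.5% rose and 21.9% fell, against 20.0% and 40.0% of these markers. Their mean level was 9.36 to 9.66 on the ex vivo and 8.93 to 9.4 on the activated arrays. Cd4 itself was at 7.27 to 8.44 ex vivo and 7.76 to 10.07 after activation, and Cd8a, the marker of the other T cell lineage, stayed at 3.27 to 3.52 and 3.25 to 3.36. Of 10 B cell markers 6 fell (60.0%) and none rose. Their mean level was 4.96 to 5.22 ex vivo and 3.66 to 4.13 after activation. Cd79b, a part of the B cell receptor, was at 8.02 to 8.85 on the ex vivo and at 3.77 to 5.95 on the activated arrays. Ms4a1, which encodes CD20, was at 3.49 to 4.36 and 3.06 to 3.62. Of 15 myeloid markers 4 fell (26.7%, near the 21.9% of all genes) and 1 rose (6.67%). Their mean levels were 4.23 to 4.54 ex vivo and 4.0 to 4.18 after activation. Of 8 markers of CD8 T and NK cells 3 fell (37.5%, and 1 marker without ex vivo polysome array 4) and none rose. Of 12 stromal and endothelial markers 4 rose (33.3%) and none fell, with a mean level of 3.81 to 4.17 after activation. The count of rises dropped to 1 without array 3 and to 2 without array 7, 8 or 11. Fewer cells of a type and less RNA per cell cannot be told apart in these bulk samples. The part of B cell RNA in the falls described below was not tested.

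With both fractions in 1 fit, 3707 of 16475 genes rose on activation and 3605 fell, which is 22.5% and 21.9% of the genes tested and 44.4% in all (limma, fraction as a block, adjusted p under 0.05). The median change over all genes was 0.0724. Of the genes called, 338 rose and 358 fell over 8-fold. In the paper's scheme, mRNA of cytosolic extracts was either put on arrays directly or sedimented to collect polysomes. The cytosolic and polysome-associated arrays of a state may thus come from the same cultures, which the labels do not say. If so, 4 arrays stand for 2 cultures, and with consecutive array numbers as a random block 3536 genes rose and 3503 fell. Low intensities compress folds, so that the size of a change is uncertain where 1 state lies near or under the median of 4.875. Of the genes called in the same direction in both fractions, 700 rose from an ex vivo mean under this median and 613 fell to an activated mean under it.

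The arrays of the states did not overlap for 23.7% of all genes in the higher and 20.5% in the lower direction. Among genes called in both fractions whose arrays did not overlap, Il2 had the largest rise. It encodes interleukin 2, the growth factor that activated helper cells secrete. Il2 was at 3.64 and 3.66 in cytosolic and 3.79 and 3.47 in polysome-associated mRNA ex vivo, and at 10.20 and 11.39 in cytosolic and 11.88 and 12.07 in polysome-associated mRNA after activation. By this choice of genes all 4 activated arrays lay above all 4 ex vivo arrays. The difference was 7.75 (standard error 0.33, adjusted p = 6.58e-06), or 215-fold. Ifng, the cytokine of type 1 helper cells, was at 4.01 to 5.83 ex vivo and 10.58 to 11.24 after activation and rose by 6.02 (standard error 0.34, adjusted p = 1.79e-05). Il4, the cytokine of type 2 helper cells, was at 4.22 to 4.4 ex vivo and 8.97 to 9.87 after activation and rose by 5.13 (standard error 0.22). Among chemokines, Ccl3 rose by 6.84, Ccl1 by 5.43 and Ccl4 by 3.92. Of 29 measured genes for cytokines and cytotoxic effectors 19 rose and 4 fell, with a median change of 2.18. As shares this is 65.5% and 13.8%, against 22.5% and 21.9% of all genes. The 4 that fell were Prf1 (-4.12), the pore-forming protein of killer cells, Ltb (-3.94), lymphotoxin beta, Ccl5 (-2.46) and Osm (-1.24). The cytosolic and polysome medians of this group were close, at 2.15 and 2.13.

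**Figure D1:**
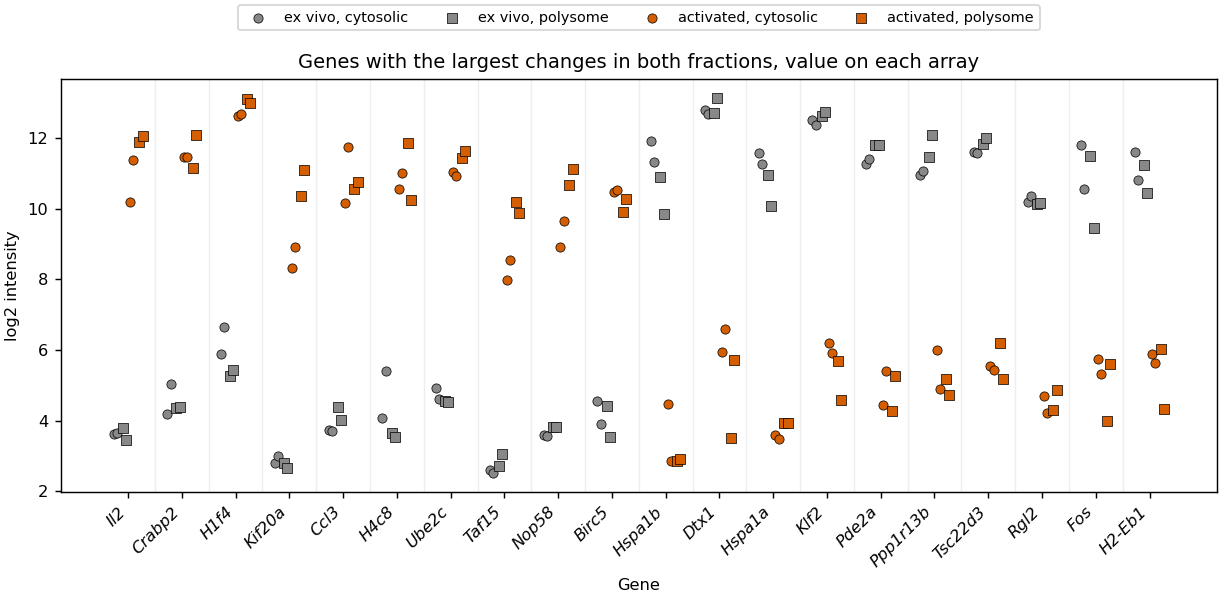
The log2 intensity (vertical axis) of the 10 genes with the largest rise and the 10 with the largest fall, called in both fractions, on each of the 8 arrays. Grey points are ex vivo and orange points activated cells, circles are cytosolic and squares polysome-associated mRNA. The genes were chosen among those whose arrays of the 2 states do not overlap.

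Among the other leading genes were several of chromatin and cell division. Crabp2, a binding protein for retinoic acid, rose by 7.05 (standard error 0.27). The histone genes H1f4, H4c8 and H3c7 rose by 7.03, 6.75 and 5.82, and since histone genes are near-identical copies of each other, their signals may be shared. Kif20a, a motor protein of the dividing cell, was at 2.66 to 3.0 ex vivo and 8.34 to 11.09 after activation. Birc5, which encodes survivin, rose by 6.19 (standard error 0.24), and Ube2c, the ubiquitin-conjugating enzyme of the anaphase-promoting complex, by 6.6 (standard error 0.2). Psme3, a proteasome activator, rose by 6.13, Taf15, an RNA-binding protein, by 6.42, and Mob1b, an adaptor of the Hippo pathway, by 6.08.

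Mitosis was the list with the largest median change, 2.54, with 49 of its 55 measured members higher and 2 lower. Aurkb, the kinase that corrects the attachment of chromosomes, was at 4.04 and 3.64 in cytosolic and 3.62 and 3.41 in polysome-associated mRNA ex vivo and at 8.66 and 8.71 in cytosolic and 8.46 and 8.63 in polysome-associated mRNA after activation. The replicates differed little and the states by 4.94 (standard error 0.15, adjusted p = 3.06e-06). Spc24 and Cenpk, proteins of the kinetochore, rose by 5.06 and 5.55, and Cdca8 by 4.51. The members that fell were Bub3 (-1.39), of the spindle checkpoint, and Cdc25b (-1.88), a phosphatase that starts mitosis. Mki67, the proliferation marker Ki-67, was at 6.66 to 6.79 ex vivo and 7.84 to 8.94 after activation, and rose by 1.74 (standard error 0.23, adjusted p = 0.000804). Anapc4, a subunit of the anaphase-promoting complex, rose by 1.37 (standard error 0.3, adjusted p = 0.00817), although its arrays overlapped, at 5.99 to 6.99 and 6.71 to 9.09.

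Of 43 genes of DNA replication 33 rose and 2 fell, with a median of 2.05. Gins2 and Gins1, of the replicative helicase, rose by 4.23 and 4.81, and Rfc4, of the clamp loader, by 4.77. Pole3, a subunit of DNA polymerase epsilon, was at 3.16 to 3.89 ex vivo and 7.0 to 7.96 after activation. Mcm3 and Mcm6, subunits of the helicase ring, rose by 3.15 and 3.22, and Cdc6, which loads that ring, by 5.04 (standard error 0.39). Rpa1, which binds single-stranded DNA, fell by 1.58. Cdt1, another loading factor, changed by -0.76 (adjusted p = 0.039), a call that was lost in 8 of 16 alternative settings, among them without array 4, 7, 8, 10, 11 or 12, which leave 1 lower member. Of 29 genes for G1 cyclins, their kinases and E2F factors 12 rose and 4 fell. These are 41.4% and 13.8%, against 22.5% and 21.9% of all genes. Tfdp1, the partner of the E2F factors, was at 6.96 and 6.53 in cytosolic and 6.91 and 6.74 in polysome-associated mRNA ex vivo and at 12.17 and 12.85 in cytosolic and 12 and 12.66 in polysome-associated mRNA after activation, a rise of 5.64 (standard error 0.23). Ccne1, cyclin E1, rose by 2.65 (standard error 0.18, adjusted p = 3.92e-05) and E2f8 by 3.54. Ccnd3, cyclin D3, was at 10.74 to 10.94 ex vivo and 8.15 to 10.01 after activation, and fell by 1.58 (standard error 0.37, adjusted p = 0.0109). Rb1 (-1.64), Ccng2 (-1.71) and Cdk2 (-0.88) fell as well. The call of Cdk2 was lost in the limma fit over all 16 arrays (standard error 0.481, adjusted p = 0.163).

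E2F factors are the known regulators of many replication genes, so the promoters of this group were searched for the letters TTGGCGC or TTCCCGC on either strand. The windows, taken from RefSeq for GRCm38.p6, run from 250 bases before to 50 bases after the start of each gene and were at hand for 34 of the 43 genes. These letters were in 19 of the 34 windows, or 55.9%, against 10.5% of the 12585 windows of all genes, 16% of 1264 genes that rose in both fractions and 10.3% of 1417 that fell. Of the replication genes not called, Pole2, Gins3, Pold3 and Pold1 held these letters and Pola2, Pold2 and Rnaseh2a did not. Of those that fell, Cdt1 held them and Rpa1 did not. Cdc45 (3.46), Mcm10 (3.58), Orc6 (3.27) and Lig1 (2.6) were among the genes that rose without them. The median GC content was 59.0% both in the replication windows and in all windows. For mitosis the share was 13.3% of 45 windows. Stretches of 150 bases that end at the start of 3 replication genes are shown because they hold these letters, which are in capitals.
Mcm6, chr1:128359706-128359855, minus strand: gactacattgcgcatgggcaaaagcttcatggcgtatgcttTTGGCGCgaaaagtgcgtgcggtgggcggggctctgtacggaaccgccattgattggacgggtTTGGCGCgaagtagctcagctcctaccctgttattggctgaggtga
Pola1, chrX:93632156-93632305, minus strand: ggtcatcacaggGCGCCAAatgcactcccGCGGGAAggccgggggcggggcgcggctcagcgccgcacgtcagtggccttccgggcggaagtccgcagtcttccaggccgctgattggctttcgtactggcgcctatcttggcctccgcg
Cdc6, chr11:98908001-98908150, plus strand: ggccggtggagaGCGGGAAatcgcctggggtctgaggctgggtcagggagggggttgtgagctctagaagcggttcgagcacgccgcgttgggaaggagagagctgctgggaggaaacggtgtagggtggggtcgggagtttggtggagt
Mcm6 was at 7.24 to 7.94 ex vivo and 10.33 to 11.31 after activation. Pola1, the catalytic subunit of DNA polymerase alpha, was at 3.78 to 4.28 and 5.41 to 7.46, and Cdc6 at 4.22 to 5.69 and 9.11 to 10.20. A match of letters is a description of the window and shows no binding.

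Genes of growth and metabolism were followed next. Myc, the factor that drives growth of activated T cells, was at 6.92 and 6.27 in cytosolic and 5.86 and 6.1 in polysome-associated mRNA ex vivo and at 12.05 and 11.57 in cytosolic and 12.34 and 12.41 in polysome-associated mRNA after activation. It rose by 5.8 (standard error 0.29, adjusted p = 1.03e-05), or 55.8-fold. Of the 21 genes in the list of Myc and nutrient transporters 9 rose and 3 fell (7 fell without array 11). As shares, 9 and 3 are 42.9% and 14.3%, against 22.5% and 21.9% of all genes. Tfrc, the transferrin receptor, rose by 5.39, the lactate transporters Slc16a3 and Slc16a1 by 4.57 and 2.18, and the glucose transporter Slc2a1 by 2.7. Those that fell were Mlx (-0.75), Slc3a2, the heavy chain of amino acid transporters (-1.02), and Slc29a1, a nucleoside transporter (-1.6). The call of Mlx was lost in the limma fit over all 16 arrays (adjusted p = 0.0946) and under cyclic loess (limma, adjusted p = 0.0515). For synthesis of nucleotides and one-carbon units, 18 of 30 genes rose and 5 fell, with a median of 1.36. As shares this is 60.0% and 16.7%, against 22.5% and 21.9% of all genes. The lower count was 3 without any 1 of arrays 4, 7, 8 and 10. Rrm2 and Rrm1, the subunits of ribonucleotide reductase, rose by 5.97 and 4.51. Psat1, an enzyme of serine synthesis, was at 7.76 to 8.04 ex vivo and 11.53 to 12.16 after activation and rose by 3.99 (standard error 0.15). Phgdh, the first enzyme of the same pathway, was at 10.74 to 11.19 and 6.26 to 7.23 and fell by 4.18 (standard error 0.25, adjusted p = 2.31e-05). The arrays of the states did not overlap for either gene. Of 12 measured glycolysis genes, out of 19 in the list, 3 rose and 2 fell, or 25.0% and 16.7%, near the 22.5% and 21.9% of all genes. Hk1, hexokinase 1, rose by 3.78, Pfkp by 1.92 and Tpi1 by 1.13, while Aldoc (-2.45) and Ldhb (-0.79) fell.

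Genes of protein synthesis were followed from ribosome assembly to initiation. Of 45 genes for ribosome biogenesis and RNA polymerase I 28 rose and 2 fell, with a median of 0.91. Nop58, of the complex that methylates ribosomal RNA, was at 3.59 and 3.58 in cytosolic and 3.82 and 3.83 in polysome-associated mRNA ex vivo and at 8.93 and 9.65 in cytosolic and 10.68 and 11.13 in polysome-associated mRNA after activation. The rise was 6.39 (standard error 0.32). Ddx21, a nucleolar helicase, rose by 2.67 and Rrp1b by 2.9, while Rrp9 (-1.23) and Polr1c (-0.72) fell. Only 13 of 58 cytosolic ribosomal proteins were measured, and of these 1 rose (0 without array 4, 8, 10 or 12, and 2 without array 3 or 11) and 4 fell, among them Rpl22 (-2.1) and Rps14 (-1.0). Of 36 initiation and elongation factors 19 rose and 5 fell (52.8% and 13.9%, against 22.5% and 21.9% of all genes). Eif3a, the largest subunit of eIF3, rose by 4.27 and Eif5 by 2.78, whereas Eif3f (-1.57) and Eef2 (-0.97) fell. Eif4e, the cap-binding protein, was at 5.73 and 5.26 in cytosolic and 5.47 and 5.31 in polysome-associated mRNA ex vivo and at 6.87 and 6.29 in cytosolic and 8.19 and 8.32 in polysome-associated mRNA after activation. It rose by 1.97 (standard error 0.37, adjusted p = 0.00396). Of 26 eIF4E regulators and mTOR pathway genes 5 rose and 4 fell, or 19.2% and 15.4%, which is at or below the shares of all genes (22.5% and 21.9%). The lower count was 7 without array 9. Of 21 aminoacyl-tRNA synthetases 10 rose and 3 fell (47.6% and 14.3%, against 22.5% and 21.9% of all genes).

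The letters CACGTG, the E-box that Myc is known to bind, were in 26.2% of 42 promoter windows of the ribosome biogenesis genes, against 9.22% of all 12585 windows, 9.97% of the genes that rose in both fractions and 10.4% of those that fell. Of the genes that held these letters, Mybbp1a, Ltv1, Utp4, Nop2, Imp4, Pno1 and Wdr43 rose. The other holders, Pes1, Rrn3, Utp18 and Utp20, were not called. The windows of Nop58, Rrp1b and Ddx21, which rose more than Nop2, did not hold them. The 150 bases before the start of Nop2 are shown because they hold the E-box, which is in capitals.
Nop2, chr6:125131733-125131882, plus strand: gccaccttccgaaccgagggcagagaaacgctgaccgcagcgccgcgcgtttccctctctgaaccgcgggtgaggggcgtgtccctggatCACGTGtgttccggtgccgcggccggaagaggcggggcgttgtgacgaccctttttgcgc
Nop2, a methyltransferase of ribosomal RNA, was at 7.76 to 8.24 ex vivo and 8.42 to 9.48 after activation and rose by 0.91 (standard error 0.19, adjusted p = 0.00702).

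Genes of the mitochondrial ribosome and of import into mitochondria rose in 28 of 38 cases and fell in 3 (5 without array 11), with a median of 1.53. Hspe1, the mitochondrial co-chaperonin, was at 6.43 to 6.96 ex vivo and 11.14 to 11.62 after activation, and Tomm40, the import pore, rose by 3.1. Of 40 genes of oxidative phosphorylation 14 rose and 8 fell (35.0% and 20.0%, against 22.5% and 21.9% of all genes). The median was 0.07, close to that of all genes. The lower count was 5 without array 4 or 8. Of 19 genes of the TCA cycle 6 rose (31.6%), among them Dld (3.24), and 3 fell (15.8%), among them Ogdh (-1.54). Of 35 proteasome genes 19 rose and 8 fell (5 without array 3, 7 or 9). As shares, 19 and 8 are 54.3% and 22.9%, against 22.5% and 21.9% of all genes. Besides Psme3, Psmc6 rose by 3.03 and Psmd14 by 3.03, while the immunoproteasome subunit Psmb10 (-2.58) and the interferon-induced activator subunit Psme2 (-1.29) fell. Of 33 splicing factors 20 rose and 3 fell (1 without array 3, 4, 7, 8, 9 or 11), and among those that rose was Snrpd1, a core protein of spliceosomal particles (5.26, standard error 0.22). Of 26 mRNA decay regulators 12 rose, among them Upf1 (3.61), and 1, Cnot8, fell (-1.77). The lower count was 3 without array 9, 11 or 12.

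Of 34 measured chaperones 24 rose and 7 fell (70.6% and 20.6%, against 22.5% and 21.9% of all genes). The share that fell was thus near that of all genes. Calr, calreticulin of the endoplasmic reticulum, rose by 3.28 and Hyou1 by 2.69. The stress-inducible Hspa1b, an HSP70 gene, was at 11.92 and 11.32 in cytosolic and 10.90 and 9.86 in polysome-associated mRNA ex vivo and at 4.48 and 2.87 in cytosolic and 2.85 and 2.93 in polysome-associated mRNA after activation. Its change of -7.72 (standard error 0.39, adjusted p = 1.11e-05) was the largest fall among the named genes, and its near-identical copy Hspa1a changed by -7.23, with which it may share signal. Dnajb1, a co-chaperone of HSP70 that is also induced by heat, fell by 1.13.

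Immediate early genes and the factors NFAT, AP-1 and NF-kB changed in both directions, with 13 of 33 higher and 13 lower. Each is 39.4%, against 22.5% higher and 21.9% lower of all genes. Fos, an immediate early gene and part of AP-1, was at 11.80 and 10.56 in cytosolic and 11.48 and 9.45 in polysome-associated mRNA ex vivo and at 5.74 and 5.32 in cytosolic and 4.0 and 5.61 in polysome-associated mRNA after activation. The ex vivo replicates were spread over more than 2-fold in each fraction, yet all lay above the activated arrays, and the change was -5.66 (standard error 0.54, adjusted p = 0.000156). Ier2 (-4.36), Junb (-3.58), Jun (-2.03) and Fosb (-1.86) had the same direction. Rela, the p65 subunit of NF-kB, was at 11.16 and 11.07 in cytosolic and 11.88 and 12.14 in polysome-associated mRNA ex vivo and at 7.31 and 7.39 in cytosolic and 8.39 and 7.01 in polysome-associated mRNA after activation, a change of -4.04 (standard error 0.3). Nfkbia, an inhibitor of NF-kB, fell by 3.1. The part of sorting and of cycloheximide exposure in these falls and in that of Hspa1b was not tested. Among those that rose were Irf4 (4.17, standard error 0.17), a factor needed for effector cells, Egr2 (3.81), Atf3 (4.4) and Rel (2.96), the NF-kB subunit c-Rel.

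Of 23 transcription factors of helper lineages and effector cells 10 rose and 3 fell. Nfil3, a factor of effector cells, was at 5.19 to 5.47 ex vivo and 10.01 to 10.63 after activation and rose by 4.93 (standard error 0.17). Hif1a, the oxygen-regulated factor, rose by 2.69, Bhlhe40 by 2.41 and Tbx21, the T-bet gene of type 1 helper cells, by 1.51, whereas Bcl6, of follicular helper cells, fell by 0.81. Foxp3 rose by 1.61 (standard error 0.34, adjusted p = 0.00662) and stayed far below its level in Foxp3+ cells. Of 17 genes known from regulatory T cells 6 rose and 3 fell (35.3% and 17.6%, against 22.5% and 21.9% of all genes). Ctla4, an inhibitory receptor, was at 5.36 to 6.01 ex vivo and 5.94 to 7.69 after activation. The difference was 1.09 (standard error 0.44), which was not called (adjusted p = 0.0819). Tnfrsf18, which encodes GITR, differed by 0.31 (standard error 0.15, adjusted p = 0.139), at 11.30 to 11.51 and 11.46 to 12.05.

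Receptors of activation and costimulation were higher in 12 of 29 cases and lower in 2, Cd5 (-2.11) and Cd6 (-1.68), both of which restrain receptor signalling. Il2ra, the alpha chain of the interleukin 2 receptor, was at 3.87 and 4.28 in cytosolic and 3.55 and 3.62 in polysome-associated mRNA ex vivo and at 7.78 and 8.36 in cytosolic and 9.55 and 9.75 in polysome-associated mRNA after activation. It rose by 5.03 (standard error 0.41, adjusted p = 8.06e-05). Tnfrsf9 (4-1BB) rose by 2.92, Tnfrsf4 (OX40) by 2.36 and Cd69 by 2.52. The call of Cd69 was lost in the limma fit over all 16 arrays (standard error 1.34, adjusted p = 0.153). Among 29 cytokine receptors and STAT signalling genes 6 rose and 9 fell, or 20.7% and 31.0%, against 22.5% and 21.9% of all genes. Il2rb, the beta chain of the same receptor, rose by 3.0, Stat5a, which it signals through, by 2.5 and Il12rb1 by 2.45. Il7r, the receptor for interleukin 7 on which resting cells depend, was at 8.69 and 8.48 in cytosolic and 9.59 and 8.94 in polysome-associated mRNA ex vivo and at 4.65 and 4.95 in cytosolic and 5.95 and 6.18 in polysome-associated mRNA after activation. Il7r fell by 3.49 (standard error 0.21). Tgfbr2 (-2.78) and Ifngr1 (-2.53) fell too. In the BCL-2 and death receptor list 5 of 20 genes rose and 6 fell (25.0% and 30.0%, against 22.5% and 21.9% of all genes), with Bcl2l1, which encodes the survival protein BCL-XL, higher by 3.77 and its opponent Bak1 higher by 4.24.

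Genes of quiescent and naive T cells fell in 19 of 32 cases and rose in 1 (2 without array 3 or 11), with a median of -1.47. Klf2, the factor that keeps T cells quiescent and circulating, was at 12.51 and 12.36 in cytosolic and 12.63 and 12.73 in polysome-associated mRNA ex vivo and at 6.21 and 5.9 in cytosolic and 5.68 and 4.59 in polysome-associated mRNA after activation. The arrays of the states lay far apart, and the change was -6.96 (standard error 0.32, adjusted p = 7.41e-06). Tsc22d3, the glucocorticoid-induced leucine zipper, was at 11.56 to 12 ex vivo and 5.17 to 6.21 after activation and fell by 6.15 (standard error 0.23). Txnip, an inhibitor of glucose uptake, fell by 5.21. Pik3ip1, an inhibitor of PI3 kinase, fell by 4.15 (standard error 0.14). The member that rose was Foxo3 (2.99, adjusted p = 0.00485), at 6.64 and 6.44 on activated arrays 9 and 10 and at 8.65 and 8.87 on arrays 11 and 12. Other large falls were those of Dtx1, a target and regulator of Notch (-7.39), Pde2a, a phosphodiesterase (-6.72), Ppp1r13b (-6.19), Rgl2 (-5.69), Nsg2 (-5.52), Pglyrp2 (-5.51), Mylip (-5.41), Zbtb42 (-5.3) and Acss1 (-5.25). H2-Eb1, an MHC class II gene of B cells and other antigen-presenting cells, was at 10.46 to 11.60 ex vivo and 4.33 to 6.03 after activation, and it fell together with the B cell markers described above.

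Of 32 genes of the T cell receptor complex and its proximal signalling 17 fell and 7 rose. These are 53.1% and 21.9%, against 21.9% and 22.5% of all genes, so that the share that rose was near that of all genes. Among those that fell were the kinases Txk (-4.18) and Csk (-2.31), the adaptor Sla2 (-3.34) and the exchange factor Vav1 (-2.75). Cd3e and Cd247, which encode chains of the receptor complex, rose by 1.32 and 1.55. Cd3e was at 10.02 to 10.28 ex vivo and 11.22 to 11.73 after activation. Of 8 GIMAP genes, GTPases of lymphocyte survival, 6 fell and none rose. This count was 3 under cyclic loess and without any 1 of 5 of the 8 arrays (3, 4, 7, 9 and 11). Of 20 chemokine receptors and trafficking genes 11 fell and 4 rose. Selplg, the ligand of selectins (-4.0), Ccr6 (-3.12) and S1pr1, which lets cells leave lymph nodes (-3.99, standard error 0.57), were among those that fell. Ccr4 and Ccr8, chemokine receptors of effector and regulatory cells, rose by 5.19 and 4.79, with Ccr4 at 4.63 to 5.19 ex vivo and 9.62 to 10.81 after activation. Of 28 genes of lysosomes and autophagy 18 fell and 2 rose (1 without array 3, 4, 7, 8 or 10), with the cathepsin Ctss at -3.4. Of 26 interferon response genes 14 fell and 2 rose, with Oas3 at 7.83 to 8.06 ex vivo and 4.11 to 4.82 after activation while Irf7 fell by 3.46. Irf8 was 1 of the 2 that rose, by 2.71. In cholesterol synthesis 7 of 21 genes rose and 8 fell (33.3% and 38.1%, against 22.5% and 21.9% of all genes). In the integrated stress response 4 of 18 rose and 2 fell (22.2% and 11.1%), and 2 rose without array 3, 4, 7, 8 or 10. Among hypoxia genes 6 of 17 rose and 3 fell (35.3% and 17.6%). In polyamine synthesis 4 of 9 rose and 3 fell (44.4% and 33.3%). Odc1, which starts polyamine synthesis, rose by 3.06 and Oaz1, its inhibitor, fell by 3.04.

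**Figure D2:**
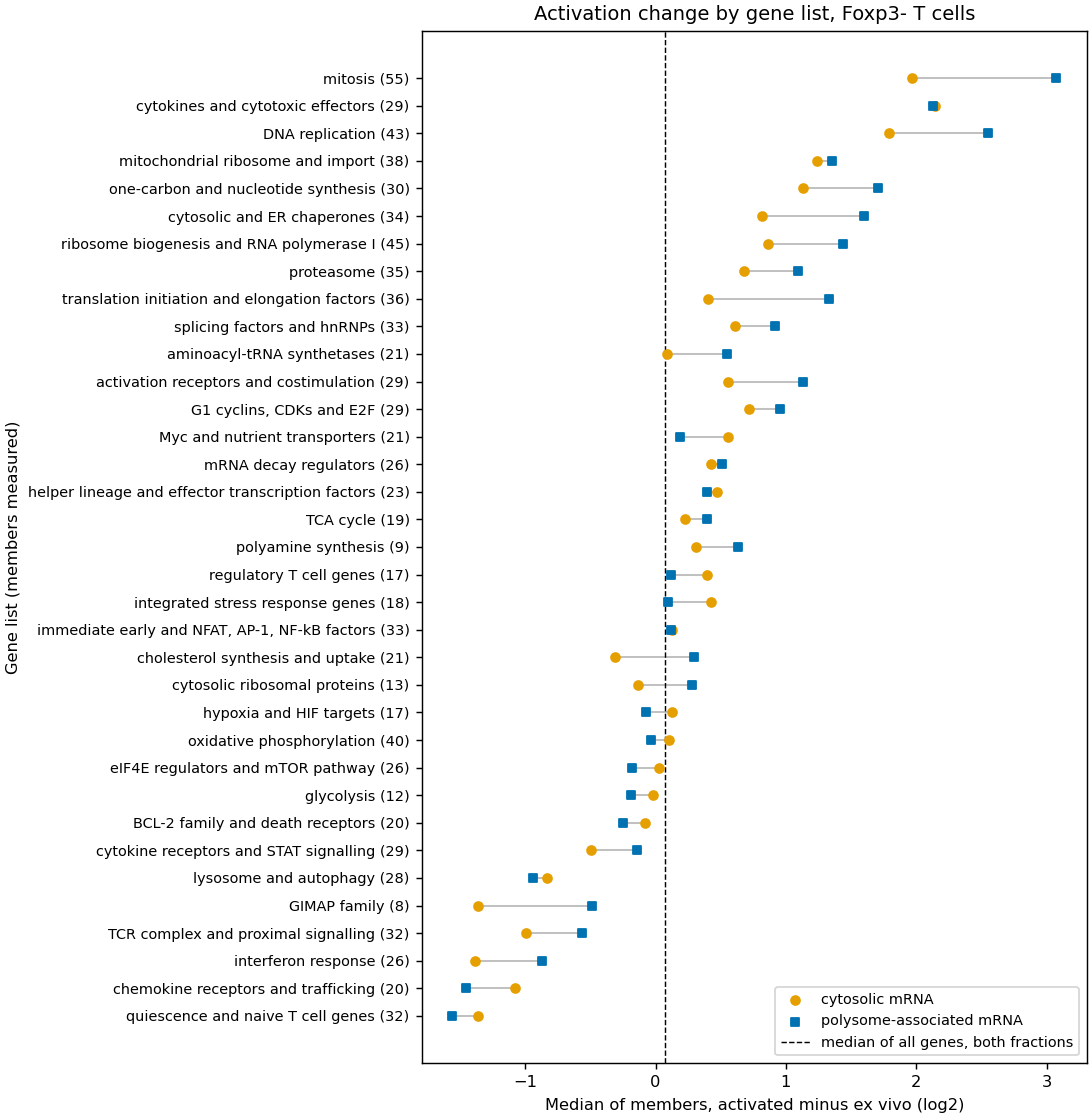
Median activation change (horizontal axis, log2) of the members of each gene list in cytosolic mRNA (orange circles) and polysome-associated mRNA (blue squares) of Foxp3- cells, with the number of members measured in brackets. The dashed line is the median of all genes, and mitosis stands at 1.97 in cytosolic and 3.08 in polysome-associated mRNA while quiescence genes stand at -1.36 and -1.56.

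As separate contrasts of 1 fit over the 8 arrays, with a spread shared by both fractions, the fractions gave like numbers of calls. In cytosolic mRNA 2573 genes rose and 2405 fell, or 15.6% and 14.6% of those tested (30.2% in all). In polysome-associated mRNA 2658 rose and 2995 fell, or 16.1% and 18.2% (34.3% in all). Both fractions were called in the same direction for 3472 genes, 1640 higher and 1832 lower, which is 9.95% and 11.1% of all genes. These were 69.7% of the cytosolic and 61.4% of the polysome calls. A further 1477 genes were called in cytosolic mRNA alone, 1300 of them with the same sign in polysomes, and 2152 in polysomes alone, 1888 of them with the same sign in the cytosol. Across genes, which are not independent replicates, the changes in the fractions had a Pearson correlation of 0.835. With each fraction fitted alone on its 4 arrays, 1941 genes rose and 2090 fell in cytosolic mRNA. In polysomes 2463 rose and 2743 fell in that setting, and 1301 higher and 1455 lower were shared. In the fit over the 8 arrays the counts were lower without either ex vivo array of the fraction, which leaves 1 array in that group. The part of the smaller spread between ex vivo replicates in these drops was not tested. Cytosolic calls numbered 1017 higher and 1035 lower without array 3, and 1014 and 1118 without array 7. Polysome calls numbered 1619 and 1763 without array 4, and 1491 and 1731 without array 8. Shared calls numbered 894 and 919 without array 3, 834 and 957 without array 7, 1064 and 1205 without array 4, and 1044 higher without array 8.

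**Figure D3:**
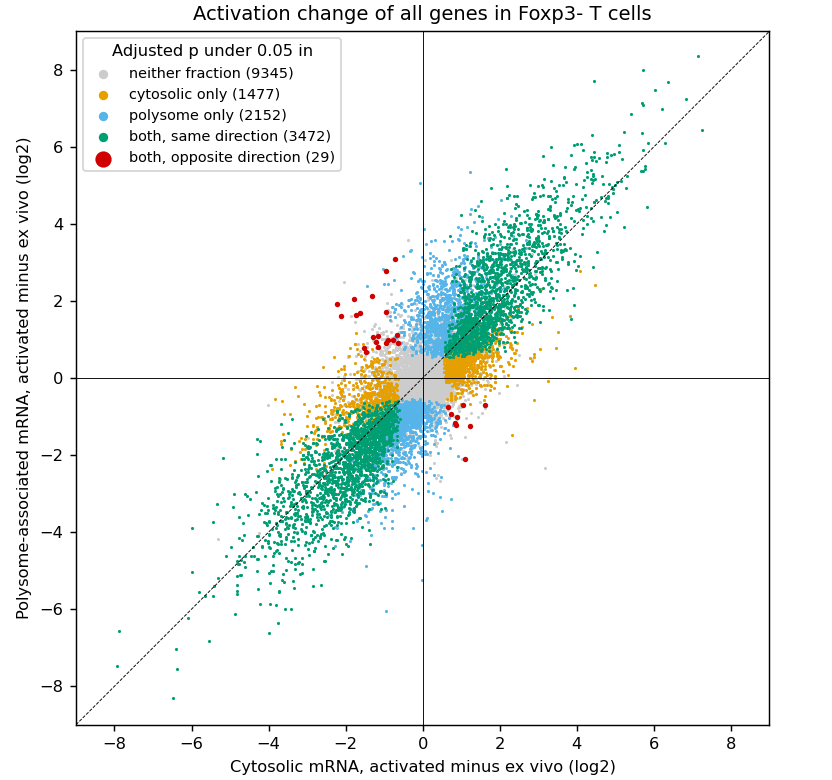
Activation change of each of 16475 genes in cytosolic mRNA (horizontal axis) against polysome-associated mRNA (vertical axis) of Foxp3- cells, both in log2 units, coloured by the fraction in which the gene was called. The 3472 genes called in both in the same direction scatter around the dashed line of equal change, and 29 were called in opposite directions.

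The size of the change was often larger in polysomes. Of the 1640 genes that rose in both fractions 999 had the larger rise in polysomes, and of the 1832 that fell 1205 had the larger fall there. Activated cytosolic array 11 had an interquartile range of 3.03, against 3.34 to 3.54 on the other arrays. The part of this narrower range in these counts was not tested. For mitosis the median came to 1.97 in cytosolic and 3.08 in polysome-associated mRNA, and for DNA replication 1.79 and 2.55. For initiation and elongation factors it was 0.4 and 1.33, for ribosome biogenesis 0.86 and 1.44, and for chaperones 0.82 and 1.6. Over all genes the medians were 0.111 and 0.0232. In the list of mitochondrial ribosome and import the medians were closer, at 1.24 and 1.35. GIMAP genes had medians of -1.36 and -0.49, with 6 of 8 called lower in cytosolic and 2 in polysome-associated mRNA. Within single genes the difference was rarely called. Il2ra rose by 3.99 in cytosolic and 6.06 in polysome-associated mRNA, a difference of 2.07 (standard error 0.37, adjusted p = 0.0915). For Eif4e the rises were 1.08 and 2.86 (difference 1.78, standard error 0.38, adjusted p = 0.129), and for Eif3a 3.54 and 5.0 (difference 1.46, adjusted p = 0.116). Kif20a rose by 5.72 and 7.99 and Mob1b by 4.45 and 7.72, with adjusted p of 0.103 and 0.0652 for the differences.

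The activation change itself differed between the fractions for 14 genes, or 0.085% of those tested, 13 with the higher change in polysomes (0.0789%) and 1 with the lower (0.00607%). At an unadjusted p under 0.05 there were 1198 and 1184, which is 14.5% of genes. All 14 are given here. Cd27, a costimulatory receptor of naive and memory cells, was at 9.02 and 8.82 in cytosolic and 6.66 and 6.58 in polysome-associated mRNA ex vivo and at 7.13 and 7.15 in cytosolic and 8.59 and 8.75 in polysome-associated mRNA after activation. It changed by -1.78 in cytosolic mRNA (adjusted p = 0.000958) and by 2.04 in polysomes (adjusted p = 0.00035), a difference of 3.83 (standard error 0.26, adjusted p = 0.0177). Its polysome arrays thus lay below its cytosolic arrays ex vivo and above them after activation. Isg20, an RNA exonuclease induced by interferon, was at 8.77 and 8.97 in cytosolic and 5.91 and 5.8 in polysome-associated mRNA ex vivo and at 7.08 and 6.22 in cytosolic and 7.78 and 7.8 in polysome-associated mRNA after activation. It behaved like Cd27, with -2.22 in cytosolic and 1.93 in polysome-associated mRNA (difference 4.15, standard error 0.42, adjusted p = 0.0428). Zbtb1, a zinc finger factor needed for lymphocyte development, changed by -1.33 and 2.13 (difference 3.46).

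For the others the polysome value rose, while the cytosolic value was not called for 6 genes, was lower for Rbm6 and C1galt1 and was higher for Usp9x and Atrx. Mettl14, a subunit of the enzyme that writes m6A into mRNA, was at 5.38 and 5.3 in cytosolic and 5.56 and 5.27 in polysome-associated mRNA ex vivo and at 4.83 and 5.23 in cytosolic and 8.93 and 8.56 in polysome-associated mRNA after activation. Its cytosolic change of -0.31 was not called (adjusted p = 0.362) and its polysome change was 3.33 (adjusted p = 0.000178). Taf1b, of the initiation complex of RNA polymerase I, changed by 0.02 and 3.87, and Ufl1, the ligase for the modifier UFM1, by -0.34 and 3.29. Xpa, of nucleotide excision repair, changed by -0.51 and 3.17, and Slc25a13, the aspartate and glutamate carrier of mitochondria, by 0.18 and 3.12. Ttk, the spindle checkpoint kinase MPS1, changed by 0.35 and 3.12, Usp9x, a deubiquitinase, by 1.01 and 4.24, and Atrx, a chromatin remodeller, by 0.7 and 3.7. Rbm6, an RNA-binding protein, changed by -0.72 and 3.1, and C1galt1, which extends O-glycans, by -0.95 and 2.77. These 10 all had ex vivo values on both fractions near or under the median of 4.875, the highest being 5.56 of Mettl14. Hpx, which encodes hemopexin, was the gene with the lower change in polysomes. It was at 3.21 and 3.49 in cytosolic and 7.26 and 7.48 in polysome-associated mRNA ex vivo and at 3.26 and 3.43 in cytosolic and 2.95 and 3.13 in polysome-associated mRNA after activation, so that its ex vivo polysome arrays stood apart from the other 6. The difference was -4.32 (standard error 0.29, adjusted p = 0.0177). Next in order, and not called, were 7 genes with an adjusted p of 0.0652 each. Of these Pkig, an inhibitor of protein kinase A, was at 4.8 to 5.98 ex vivo and at 10.17 and 9.45 in cytosolic and 5.56 and 5.33 in polysome-associated mRNA after activation. Tnk2 changed by -0.79 and -3.88, Tmem259 by -1.4 and -3.95, Bcdin3d by -1.19 and -3.23, Rpp21 by 1.63 and -0.69, Zfp446 by 0.05 and -1.97 and Fam3a by 0.87 and -1.22. No gene was called without ex vivo array 3, 4 or 7, none with a higher change without array 8, and the count rose to 164 higher and 85 lower without activated array 9, 96 and 81 without array 11, 49 and 11 without array 10 and 66 and 26 without array 12.

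**Figure D4:**
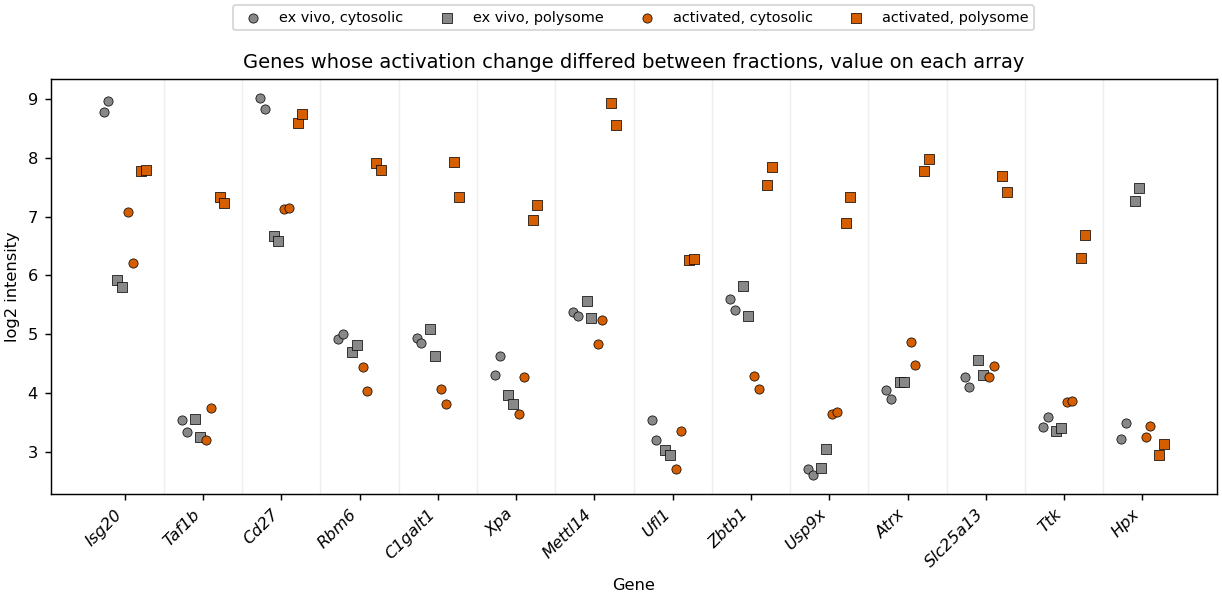
The log2 intensity (vertical axis) on each of the 8 arrays of the 14 genes whose activation change differed between the fractions, with grey for ex vivo, orange for activated, circles for cytosolic and squares for polysome-associated mRNA. For 13 genes the activated polysome arrays lie above the activated cytosolic arrays, and for Hpx the ex vivo polysome arrays alone stand high.

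Cytosolic and polysome changes were called in opposite directions for 29 genes, 20 lower in the cytosol and higher in polysomes and 9 the other way. For 5 of the 29 the difference between the fractions was also called: Cd27, Isg20, Zbtb1, Rbm6 and C1galt1. The others were called in each fraction separately but not in the test of the difference.

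Compared with Foxp3+ cells, the activation change of 1138 genes differed, 653 with a higher and 485 with a lower change in Foxp3- cells, or 3.96% and 2.94% of those tested (16 arrays, 1 mean per group). The array names in the labels differ in their run of numbers between activated Foxp3- and activated Foxp3+ cells, so that a difference between these runs cannot be told apart from that between the subsets. The counts were 346 to 401 higher without any 1 of ex vivo arrays 1 to 5, 7 and 8, and 247 to 312 lower without any 1 of ex vivo arrays 1 to 8, while 737 were lower without activated Foxp3+ array 16. Gfi1, a repressor induced in activated T cells, was at 7.37 to 7.95 ex vivo and 10.55 to 11.07 after activation in Foxp3- cells. It changed by 3.19 in Foxp3- and by -2.15 in Foxp3+ cells, so that the changes were 5.34 apart (standard error 1.01, adjusted p = 0.0111). Cenpk changed by 5.55 and 0.24 (difference 5.31, standard error 0.29, adjusted p = 2.69e-05) and Il4 by 5.13 and 0.57 (difference 4.56, standard error 0.31, adjusted p = 6.64e-05). Birc5 changed by 6.19 and 1.95, Rfc4 by 4.77 and 0.56, and Ptger2, a receptor for prostaglandin E2, by 1.56 and -2.78. Il2 rose in both subsets, by 7.75 in Foxp3- and 4.29 in Foxp3+ cells (difference 3.45, adjusted p = 0.0203). Of the 55 mitosis genes 23 had a higher change in Foxp3- cells and none a lower, and of 38 genes of the mitochondrial ribosome and import 11 and none.

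In the other direction, Sgk1, a kinase induced by salt and glucocorticoids, was at 9.09 and 8.89 in cytosolic and 9.14 and 9.25 in polysome-associated mRNA ex vivo and at 6.19 and 5.05 in cytosolic and 3.84 and 4.01 in polysome-associated mRNA after activation in Foxp3- cells. It changed by -4.32 in Foxp3- and 2.06 in Foxp3+ cells (difference -6.38, standard error 0.42, adjusted p = 6.64e-05). The homing receptors Cxcr4 and S1pr1 did the same, with -2.17 and -3.99 in Foxp3- cells against 3.97 and 1.89 in Foxp3+ cells. Emp1, a membrane protein, and Cpe, carboxypeptidase E, changed by -0.83 (adjusted p = 0.139) and -0.84 (adjusted p = 0.0167) in Foxp3- cells and by 4.09 and 3.41 in Foxp3+ cells. The call of Cpe in Foxp3- cells was lost without ex vivo array 3 or 4. In the limma fit over all 16 arrays, which gave the differences between subsets, that call was lost too (standard error 0.387, adjusted p = 0.102). Pde2a changed by -6.72 and -2.0. Of 32 quiescence genes 12 had a lower change in Foxp3- cells and 1 a higher.

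**Figure D5:**
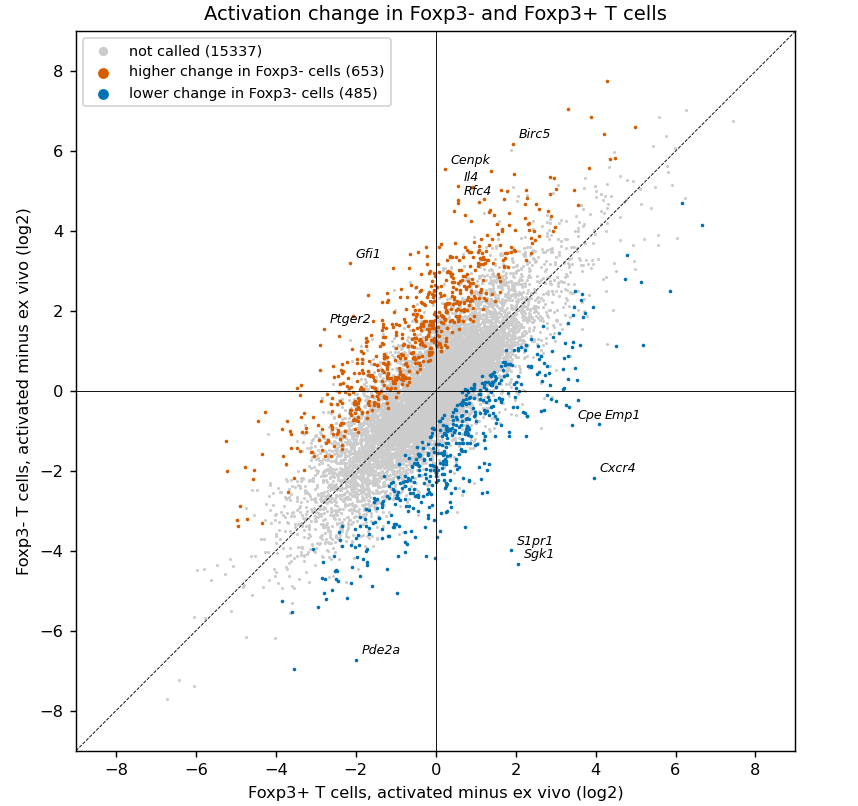
Activation change of each gene in Foxp3+ cells (horizontal axis) against Foxp3- cells (vertical axis), in log2 units averaged over the fractions. Orange marks 653 genes with a higher and blue 485 genes with a lower change in Foxp3- cells, and the 12 named genes have the largest differences in each direction.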

How the data were processed

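Affymetrix arrays measured cytosolic and polysome-associated mRNA after whole-transcriptome amplification. The deposited values are log2 intensities that the authors computed by RMA (affy in R), with probes regrouped by Entrez gene, and they were used unchanged. The sources used here do not give whether RMA was run on the states jointly.

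The 64 control probe sets among 16539 features were dropped. The other 16475 genes were tested, 15780 of them with a symbol in the platform annotation and 695 without. Samples were grouped by their labels. Tests used limma 3.58.1 in R 4.3.3, two-sided, with Benjamini-Hochberg adjustment over all genes and a call at an adjusted p under 0.05. The fit over both fractions had the fraction as a block. Single fractions and their difference came from group means of the 8 arrays, and the comparison with Foxp3+ cells from 16 arrays. Scripts were tested on simulated data. Precision is limited by having 2 arrays in each group. The samples, tests, rules and 42 gene lists were chosen with earlier results of these data known.

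Named genes were the 15 largest changes in each direction called in both fractions without overlap of arrays, the 8 largest differences between fractions in each direction (or, where fewer were called, the smallest adjusted p), the 6 largest differences from Foxp3+ cells in each direction, up to 5 members per list by adjusted p, members against their list's majority, and Foxp3, Ctla4, Il2ra, Tnfrsf18, Eif4e, Ccne1, Ccnd3, Anapc4 and Mki67 from the study. Symbols of predicted genes and antigen receptor segments were left out, as were features without one. Other genes were chosen after their values were seen. Alternatives were all 16 arrays in the fit, each fraction alone, consecutive array numbers as a random block, array weights by state, an intensity trend, genes with a mean above the median, centring, cyclic loess, quantile normalization, a 2-fold minimum and each array left out in turn. Python 3.11.15 with pandas 2.3.3 and matplotlib 3.10.9 made the tables and figures.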

Additional observations from a re-analysis of the deposited data

Results flagged for a closer look

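The following values were singled out because an effect under the same contrast differed by a test of the difference itself. They are given as values. The activation change differed between the RNA fractions for 14 genes (limma, adjusted p under 0.05). The polysome minus cytosolic change was 4.15 for Isg20, 3.85 for Taf1b, 3.83 for Cd27, 3.81 for Rbm6, 3.72 for C1galt1, 3.68 for Xpa, 3.64 for Mettl14, 3.63 for Ufl1, 3.46 for Zbtb1, 3.23 for Usp9x, 2.99 for Atrx, 2.95 for Slc25a13, 2.77 for Ttk and -4.32 for Hpx.

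The activation change differed between Foxp3- and Foxp3+ cells for 1138 genes. The genes given are those named by size of change, by difference from Foxp3+ cells or from the study. Genes named only as list members are not given. The change was higher in Foxp3- cells by 5.34 for Gfi1, 5.31 for Cenpk, 4.56 for Il4, 4.34 for Ptger2, 4.25 for Birc5, 4.21 for Rfc4, 3.73 for Crabp2, 3.45 for Il2, 2.95 for Ccl3, 2.51 for Mki67, 2.2 for Taf15, 2.01 for Foxp3, 1.99 for Eif4e, 1.62 for Ube2c, 1.57 for Il2ra and 1.35 for H3c7. The difference was negative, at -6.38 for Sgk1, -6.14 for Cxcr4, -5.87 for S1pr1, -4.92 for Emp1, -4.73 for Pde2a, -4.25 for Cpe, -3.42 for Klf2, -2.47 for Mylip, -2.15 for Ccnd3, -1.91 for Nsg2 and -1.4 for Acss1. The array names of the activated subsets form separate runs of numbers in the labels, and runs and subsets cannot be told apart in these differences.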

How the results depend on the processing

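No paired analysis was made. The array numbers in the labels run from 1 to 16, and no number is shared between groups or named as a pair. Consecutive numbers as a random block were a trial of dependence between arrays, not a paired test. No call of the 345 named genes in both fractions changed direction under any alternative. Genes above the median mean gave fewer tested genes and 2174 higher in both fractions, 1638 higher in cytosolic mRNA, and 2 higher and 0 lower for the difference between fractions. A 2-fold minimum left 2261 higher genes. The fit of all 16 arrays gave 11 genes with a lower change in polysomes in place of 1, and the cause was not tested.

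Leaving out 1 array gave 2766 to 3589 higher and 2894 to 3591 lower genes in both fractions, 1014 to 2919 and 1035 to 2782 in cytosolic mRNA, 1491 to 3130 and 1731 to 3433 in polysomes, 834 to 1803 and 919 to 1956 for both in the same direction, 0 to 164 and 0 to 85 for the difference between fractions, and 346 to 922 and 247 to 737 for the difference from Foxp3+ cells. Cytosolic counts fell by over 1.5 times without ex vivo array 3 or 7 and polysome counts without 4 or 8, with the single array left in that group taken to have the spread of the rest. Counts of the difference from Foxp3+ cells fell as far without ex vivo arrays 1 to 8, except the higher count without 6, and the lower count grew without Foxp3+ array 16. Of the named genes in both fractions, 5196 comparisons stayed on their side of the threshold, 255 lost and 29 gained a call. For the difference between fractions 44 lost and 17 gained one, and none of the 12 differences from Foxp3+ cells did. Under cyclic loess the lower calls in oxidative phosphorylation went from 8 to 4. Consecutive array numbers as a block had a consensus correlation of 0.0483.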
